A study of Homo sapiens with 32 samples.

Results

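SYNDIG1, SERTM1, CLVS2, DCDC2, ADRA1D, CSPG5 and ESRRB were among the genes that lost most of their mRNA when STAG2 was removed from A673 cells, a Ewing sarcoma line driven by the fusion oncoprotein EWS::FLI1. These 7 of the 28278 gene symbols in the deposited count tables were chosen by that measured fall in STAG2 KO clones, so their values in the STAG2 KO comparison are given below as a description, with no test. Their level in STAG1 KO clones and in SK-N-MC and A4573 cells was not part of that fall, nor was what surrounds them in the genome. Whether the A673 knockdown libraries entered the choice is not stated, so the knockdown calls may not be independent of it. The levels in EZH2 KO and SUZ12 KO clones are set against control libraries that the choice did use.

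The study compared A673 libraries in 4 experiments and isogenic pairs of 2 further Ewing sarcoma lines. Controls of experiments 1 to 3 were the parental A673 cells (genotype label WT) and 1 clone that carries a doxycycline-inducible Cas9 in the AAVS1 locus (genotype label iCas9, WT clone hereafter). The STAG2 KO, STAG1 KO, EZH2 KO and SUZ12 KO clones all carry iCas9 plus the named KO, and the methods derive them from that single WT clone. The STAG2 KO libraries of experiment 1 are numbered 5 and 24 in the count table, and these numbers could not be matched to the clone titles of the labels. Whether number 5 is the clone 5 of experiment 2 is not stated, so the 5 STAG2 KO libraries may come from fewer than 5 clones. Experiment 1 held 2 WT clone, 1 parental and 2 STAG2 KO libraries, experiment 2 held 2 WT clone, 1 parental, 3 STAG2 KO, 3 EZH2 KO and 3 SUZ12 KO libraries, and experiment 3 held 1 WT clone, 1 parental and 3 STAG1 KO libraries. In experiment 4, 3 libraries of A673 cells treated with a STAG2 siRNA (siSTAG2) were compared with 3 mock-transfected ones (genotype label WT). SK-N-MC cells (genotype label iCas9) were compared with an iCas9+STAG2ko clone. A4573 cells (genotype label iCas9), a line that lacks STAG2 protein, were compared with a clone in which STAG2 was restored (STAG2 KI, also labelled iCas9). Each arm had 1 library. For A4573 the methods describe a transfected plasmid that expresses Cas9, so what the iCas9 label means there is unclear.

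STAG2 and STAG1 are alternative subunits of cohesin, the ring-shaped complex that extrudes chromatin loops and brings distal enhancers close to promoters. In Ewing sarcoma, EWS::FLI1 binds runs of the tetranucleotide GGAA (GGAA microsatellites) and makes them act as enhancers, often far from the gene they drive. EZH2 and SUZ12 are subunits of Polycomb repressive complex 2 (PRC2), which places trimethylation on lysine 27 of histone H3 and keeps developmental genes silent. Most of the 7 genes are known from the nervous system. SYNDIG1 and CSPG5 take part in synapse development, CLVS2 binds phosphoinositides in neurons, ADRA1D is a receptor for noradrenaline, DCDC2 binds microtubules, SERTM1 is a small membrane protein of poorly known function, and ESRRB is an orphan nuclear receptor of pluripotent cells.

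The depth was 15734628 to 20663679 counts in the 22 A673 clone libraries, 29322507 to 32261248 in the 4 isogenic libraries and 6852340 to 8184632 reads in the 6 knockdown libraries. STAG2 mRNA remained at 14.5% to 62.8% of the controls of the same experiment in the 5 STAG2 KO libraries, the highest being the library numbered 24 of experiment 1, and at 13.7% to 17.1% in the 3 siSTAG2 libraries. STAG1 mRNA in the 3 STAG1 KO libraries was 15.1, 33.2 and 61.5 CPM (counts scaled to the library total) against 57.8 and 69.6 CPM in their controls, so the library numbered 1 was not below its controls. The paper verified its STAG2 KO clones by sequencing and immunoblot and describes its STAG1 clones as deficient. Remaining mRNA may not report on the protein, which was not measured here. Of 6 Ewing sarcoma markers, NKX2-2, NR0B1, STEAP1, CCND1 and PRKCB were at 25.3 CPM or more in every A673 clone library. CD99 had no counted reads in any count library, either as a value of 0 or because its symbol is not among the genes counted. Of 5 markers of other cell types, none exceeded 4.17 CPM in the A673 clone libraries, while the leukocyte gene PTPRC was at 56.6 CPM (1776 counts) in the SK-N-MC STAG2 KO library and at 99 counts in its WT partner, and its part in the SK-N-MC results was not tested. In these bulk samples, fewer cells that express a gene and less RNA per cell cannot be told apart.

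Because the genes were followed for their dependence on STAG2 in cells where EWS::FLI1 acts through GGAA repeats, the repeats around them were read from the human reference (GRCh38). All 7 genes had an uninterrupted run of at least 8 GGAA units within 500 kb of their start, which also holds for 70.6% of 20033 protein-coding genes. The run nearest to each start is shown with any GGAA joined to it over at most 5 bases and with 30 reference bases on either side, read 5′ to 3′ along the strand that carries GGAA, with every GGAA in capitals. Each name is followed by the position, the strand, what lies there and the distance from the start of the gene.
ADRA1D, chr20:4227678-4227777, minus strand, intron of ADRA1D, 21.6 kb downstream: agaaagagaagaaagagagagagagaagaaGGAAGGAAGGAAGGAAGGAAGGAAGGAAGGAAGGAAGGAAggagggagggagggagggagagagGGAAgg
SYNDIG1, chr20:24640439-24640558, plus strand, intron of SYNDIG1, 170.8 kb downstream: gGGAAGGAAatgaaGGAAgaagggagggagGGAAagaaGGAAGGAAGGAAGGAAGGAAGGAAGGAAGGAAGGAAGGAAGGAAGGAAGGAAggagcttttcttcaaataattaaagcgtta
ESRRB, chr14:76447217-76447336, minus strand, intron of ESRRB, 136.5 kb downstream: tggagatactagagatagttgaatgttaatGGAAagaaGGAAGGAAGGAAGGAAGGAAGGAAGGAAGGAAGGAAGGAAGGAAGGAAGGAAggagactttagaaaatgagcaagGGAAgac
DCDC2, chr6:24381763-24381887, plus strand, between protein-coding genes, 23.7 kb upstream: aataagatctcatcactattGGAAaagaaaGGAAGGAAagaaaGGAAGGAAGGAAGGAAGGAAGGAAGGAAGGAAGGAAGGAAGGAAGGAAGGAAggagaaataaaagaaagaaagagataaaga
CSPG5, chr3:47535836-47535951, minus strand, between protein-coding genes, 44.9 kb downstream: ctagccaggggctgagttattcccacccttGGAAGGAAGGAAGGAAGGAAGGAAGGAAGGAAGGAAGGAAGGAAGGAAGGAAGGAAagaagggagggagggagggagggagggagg
CLVS2, chr6:122808582-122808673, minus strand, intron of SMPDL3A, 187.6 kb upstream: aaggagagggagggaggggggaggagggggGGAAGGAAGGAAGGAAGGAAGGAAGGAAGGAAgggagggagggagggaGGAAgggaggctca
SERTM1, chr13:36481009-36481136, plus strand, between protein-coding genes, 193.0 kb upstream: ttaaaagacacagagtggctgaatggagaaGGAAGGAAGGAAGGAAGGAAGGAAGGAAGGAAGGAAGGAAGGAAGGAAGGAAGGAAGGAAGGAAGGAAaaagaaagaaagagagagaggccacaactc
In ADRA1D, SYNDIG1 and ESRRB the nearest run lay inside an intron of the gene itself, and SYNDIG1 held 2 such runs. Among all protein-coding genes, 5.7% contained a run of this kind, and among genes of similar length (within 1.5-fold) the share was 2.3% for ADRA1D, 16.9% for SYNDIG1 and 16.3% for ESRRB. The longest run, 17 units, lay upstream of SERTM1, and 6.1% of genes had a run at least as long within 500 kb, while the longest runs near the other 6 genes were matched by 21.5% (CLVS2) to 63.3% (ADRA1D) of genes. DCDC2 had its nearest run 23.7 kb upstream and ADRA1D 21.6 kb downstream of the start, and 6.0% and 5.4% of genes, respectively, had one as near. The nearest run of the others was less unusual, with one as near for 11% (CSPG5) to 38.7% (SERTM1) of genes, and between 9.7% (ADRA1D) and 70.6% (ESRRB) of genes had as many runs within 500 kb. The letters are those of the reference and repeat length varies between individuals, so the lengths in these cell lines may differ. Binding of EWS::FLI1 to any of these runs was not tested here. For ADRA1D, the paper reports a GGAA microsatellite bound by EWS::FLI1 that contacts the promoter, a contact lost in its STAG2 KO cells. Whether that microsatellite is the run shown above was not checked.

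Promoter windows from RefSeq (GRCh38.p14, 250 bases before to 50 after a start) were listed for 5 of the 7 genes, 8 windows in all, and not for SYNDIG1 or ADRA1D. The motif searched was GGAA on both strands (GGAA or TTCC). Each of the 8 windows held 1 to 4 copies, and 95.5% of all 35116 windows held at least 1, with a median of 3. The window with most copies was that of the most upstream ESRRB start, shown because ESRRB was the gene that responded most to PRC2 loss, with both forms of the motif in capitals.
ESRRB promoter, chr14:76310527-76310826, plus strand: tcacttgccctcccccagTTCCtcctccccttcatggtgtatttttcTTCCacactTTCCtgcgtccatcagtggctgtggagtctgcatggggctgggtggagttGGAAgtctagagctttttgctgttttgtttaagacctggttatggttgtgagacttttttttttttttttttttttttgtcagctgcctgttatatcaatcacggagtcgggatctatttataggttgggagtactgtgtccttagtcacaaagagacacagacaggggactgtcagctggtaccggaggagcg
None of its 4 copies were adjacent, and 46.0% of all windows held as many.

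After STAG2 knockdown the genes of the set that could be tested were all lower, and in the STAG1, EZH2 and SUZ12 KO clones they took different directions. In the knockdown, 6 of 6 genes tested were lower at an adjusted p under 0.05 (limma), where 11% of the 12060 genes tested were called lower and 9.54% higher. ESRRB was too low in those shallower libraries to enter the test. The labels do not say whether the libraries of one treatment came from separate transfections or cultures, so p-values measure the spread between these samples, which may be technical. In the KO tests, the controls are libraries of 1 WT clone and of parental cells, while the KO arms are separate clones. Their p-values mix spread between libraries with spread between clones. The spread between control clones was not measured. In STAG1 KO clones, 0 of 7 were called in either direction with edgeR's quasi-likelihood test, where 2.5% of all genes were called lower and 2.77% higher, and 3 of the 7 had an unadjusted p under 0.05, as did 3578 of all 14373 genes. DESeq2 called 1, SYNDIG1, as lower. In EZH2 KO clones 1 of 7, SERTM1, was called lower (3.69% of all genes) and 1, ESRRB, higher (12%), and in SUZ12 KO clones SERTM1 and CLVS2 were called lower (5.87%) and ESRRB higher (14.7%). The PRC2 comparisons share their 3 control libraries with each other and with the STAG2 KO comparison. The fall that chose the genes was measured in part against these controls, so a control value high by chance favours a lower call as well. The lower calls in the PRC2 comparisons are therefore a description. Where KO libraries are said below to lie all above or all under their controls, the share of all genes that do so was not computed. Groups this small can separate by chance. In the direct comparison of EZH2 KO with SUZ12 KO clones, 0 of 7 differed in either direction (0.00661% and 0% of all genes), with 0 at an unadjusted p under 0.05 and 0 by DESeq2.

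**Figure D1:**
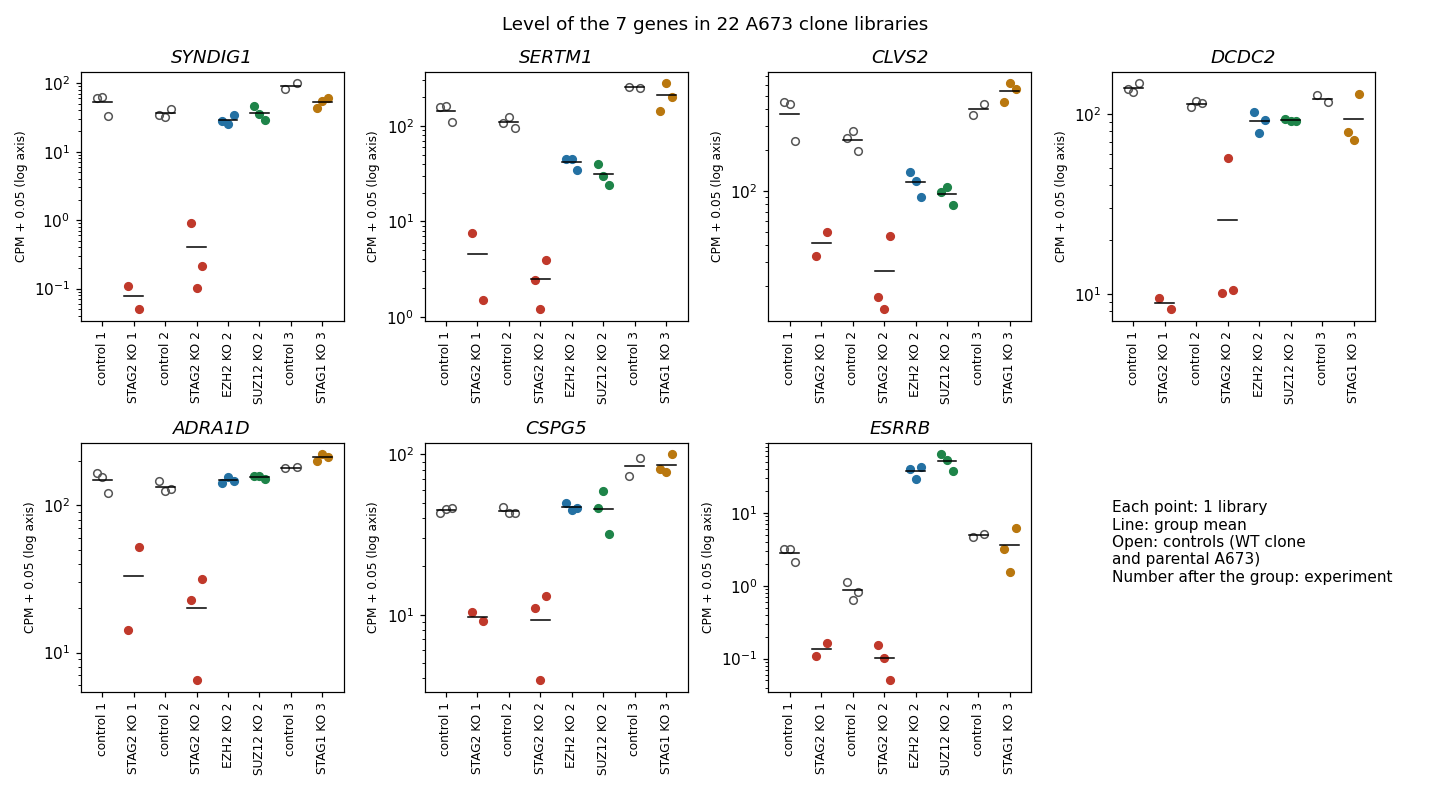
Level of each of the 7 genes (CPM plus 0.05, log axis) in the 22 A673 clone libraries by genotype and experiment, with 1 point per library and a line at the mean. The STAG2 KO points lie under all controls of their own experiment for each gene, and the EZH2 KO and SUZ12 KO points of ESRRB lie above every other library.

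In the STAG2 KO comparison, which chose the genes, every one of the 5 KO libraries was below every one of the 6 STAG2-proficient libraries for all 7 genes. The choice favours such a separation, and the share of all genes that show it was not computed. By the different measure of an adjusted p under 0.05 (edgeR), 6.34% of all 14215 genes tested were called lower. The mean share of control mRNA that remained over the 5 KO libraries was 0.607% for SYNDIG1, 2.63% for SERTM1, 5.11% for ESRRB, 10.9% for CLVS2, 16.1% for DCDC2, 18% for ADRA1D and 21.1% for CSPG5. Per kilobase of annotated exon, the mean level in the STAG2-proficient libraries was highest for ADRA1D (46.8 ± 6.1 CPM per kb, SD, n = 6) and SERTM1 (40.5 ± 8.8), whose ranges overlap, as do those of SERTM1 and CLVS2. CLVS2 (27.1 ± 9.7), DCDC2 (25.3 ± 3.0) and SYNDIG1 (18.3 ± 5.7) followed with overlapping ranges, then CSPG5 (10.2 ± 0.40) and last ESRRB (0.305 ± 0.20), both apart from their neighbours in this order. In SK-N-MC cells with STAG2 the order per kilobase was ADRA1D (53.7), SERTM1 (27.4), DCDC2 (18), CSPG5 (13.3), SYNDIG1 (12.3), CLVS2 (11) and ESRRB (7.73), and in A4573 cells with restored STAG2 it ran from ADRA1D (54.8) and CLVS2 (10.2) down to ESRRB (1.32) and DCDC2 (1.13), with 1 library each.

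SYNDIG1 encodes a transmembrane protein that associates with AMPA-type glutamate receptors at developing synapses, and lies on chromosome 20 (20:24469629-24666616, plus strand). It showed the deepest loss of the 7. In experiment 1 it was at 60.8 and 62.3 CPM in the WT clone and 33.7 CPM in parental cells, and in experiment 2 at 34.7, 32.0 and 42.5 CPM. The STAG2 KO libraries numbered 5 and 24 of experiment 1 held 1 and 0 reads of it, and clones 3, 5 and 2 of experiment 2 held 16, 1 and 3. Clone 3 thus gave 16 of the 21 reads in all KO libraries. In experiment 1 the controls were 1814-fold higher (1 against 2864 reads, 95% exact binomial interval 325 to 71678, counting error only). In experiment 2 they were 102-fold higher (20 against 1868 reads, 66.1 to 168), with 16 of the 20 KO reads from clone 3. Reads were pooled over libraries, so these intervals leave out the spread between clones, and the difference between the experiments was not tested. Over both experiments the ratio was 193 (126 to 312), and 641 without clone 3 (275 to 1976). In the knockdown, SYNDIG1 was at 295, 321 and 355 normalised reads in controls and at 86.5, 104 and 87.9 after siSTAG2, so that 28.6% remained (log2 fold change -1.79 ± 0.11 SE, n = 3 against 3, limma adjusted p = 4.01e-12).

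SYNDIG1 was also the gene closest to a call without STAG1. It stood at 43.7, 55.4 and 60.9 CPM in the STAG1 KO libraries and at 83.0 and 100.1 CPM in parental cells and the WT clone. The groups did not overlap, but the share of all genes that separate in this way was not computed. The log2 fold change was -0.78 ± 0.16 (edgeR adjusted p = 0.0509). The call was reached with DESeq2 (adjusted p = 0.00119), with no filter on low counts (adjusted p = 0.0301) and without the library numbered 1, whose STAG1 mRNA was at control level (log2 fold change -0.65, adjusted p = 0.0376). It was not reached with other scaling, with all clone libraries in 1 fit or without either of the other STAG1 KO libraries. Over the fits that each left out 1 library, the log2 fold change lay between -0.92 and -0.63. In EZH2 KO clones SYNDIG1 was at 28.3, 25.0 and 33.9 CPM and in SUZ12 KO clones at 46.3, 35.8 and 29.0 CPM, both overlapping the controls of experiment 2. In SK-N-MC cells it was at 29.7 CPM with STAG2 and 3.54 CPM without, and in A4573 cells at 12 CPM with STAG2 and 5.48 CPM without.

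SERTM1 encodes a small serine-rich protein with a transmembrane segment (13:36674020-36697839, plus strand). It had the lowest log2 fold change of the 6 members tested in the knockdown and was called lower in both PRC2 comparisons. Controls of experiment 1 were at 156, 161 and 109.7 CPM and the KO libraries numbered 5 and 24 at 7.53 and 1.47 CPM. Controls of experiment 2 were at 108, 125 and 94.4 CPM and STAG2 KO clones 3, 5 and 2 at 2.38, 1.16 and 3.89 CPM. The KO libraries therefore kept between 1.04% and 5.30% of the control level. After siSTAG2, SERTM1 went from 725, 705 and 760.5 normalised reads to 174, 166 and 165, with 23.1% left (log2 fold change -2.11 ± 0.08 SE, limma adjusted p = 2.52e-16), and 30 of the 12060 genes tested had a log2 fold change at least as low.

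SERTM1 was also lower without PRC2, against control libraries that the choice used. It was at 44.6, 45.1 and 34.6 CPM in the EZH2 KO clones and at 40.1, 29.9 and 24.1 CPM in the SUZ12 KO clones, all under the 3 controls of experiment 2. The log2 fold changes were -1.31 ± 0.29 (edgeR adjusted p = 0.0120) and -1.73 ± 0.30 (adjusted p = 0.00201). With the parental library as the only control neither was called (adjusted p = 0.271 and 0.09996), and without the WT clone library 2 the EZH2 KO value missed the threshold (adjusted p = 0.0517). In STAG1 KO libraries SERTM1 was at 144, 278 and 202 CPM against 254 and 249.6 CPM, and the groups overlapped (adjusted p = 0.547). In SK-N-MC cells SERTM1 had the largest ratio of any of the 7 genes in either pair, 85.0 CPM with STAG2 and 4.09 CPM without, and in A4573 cells the levels were 15.2 and 5.48 CPM.

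CLVS2 encodes clavesin 2, a neuronal lipid-binding protein of the Sec14 family that acts on late endosomes and lysosomes (6:122996235-123072925, plus strand). Relative to its mean, its level varied more among the controls of experiments 1 and 2 than that of the other members apart from ESRRB. In experiment 1 it was at 447 and 431 CPM in the WT clone and 230.2 CPM in parental cells, and in experiment 2 at 242, 276 and 195 CPM. The KO libraries were at 33.3 and 49.4 CPM in experiment 1 and, for clones 3, 5 and 2 of experiment 2, at 16.6, 13.4 and 46.6 CPM. In the knockdown it went from 405, 397 and 445 to 197, 181 and 181 normalised reads, with 44.8% left (log2 fold change -1.15 ± 0.09 SE, limma adjusted p = 2.46e-10).

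CLVS2 was the member called different between the WT clone and parental cells (log2 fold change 0.54 ± 0.12, edgeR adjusted p = 0.0474). The comparison held 5 and 3 libraries and called 1.01% of all genes lower and 1.74% higher. The call was lost in 5 of 8 fits that each left out 1 library, with adjusted p between 0.0787 and 0.161. All 5 WT clone libraries come from 1 clone, and the 2 of experiment 1 differed by little more than sampling noise. These 2 were counted as separate samples, so the p-value may be too small. Leaving out either of them lost the call, and the comparison was not repeated with them merged. CLVS2 was at 137, 118 and 89.8 CPM in EZH2 KO clones and at 97.0, 106 and 79.1 CPM in SUZ12 KO clones, below all 3 controls in both. Its log2 fold change was -0.96 ± 0.37 in EZH2 KO clones (adjusted p = 0.105) and -1.27 ± 0.37 in SUZ12 KO clones (adjusted p = 0.0320). The SUZ12 KO call was lost without either WT clone library or any of the 3 SUZ12 KO libraries (adjusted p between 0.0729 and 0.0969) and with parental cells as the only control (0.355). The EZH2 KO value passed the threshold when the STAG2 KO and SUZ12 KO libraries were kept out of the fit (adjusted p = 0.00707), and when STAG2 KO clone 2 (0.00578) or clone 5 (0.0367) alone was left out of it. In STAG1 KO libraries CLVS2 was at 452, 618 and 557 CPM, all above its controls at 361 and 434 CPM (log2 fold change 0.44 ± 0.16, adjusted p = 0.156, and 0.0487 without the library numbered 1). It was at 123 CPM with STAG2 and 20.1 CPM without in SK-N-MC cells, and at 115 and 37.5 CPM in A4573 cells.

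DCDC2 encodes a doublecortin-domain protein that binds microtubules and is found in primary cilia (6:24171755-24358059, minus strand). It overlaps KAAG1 on the other strand, and in libraries described as non-directional, reads of the pair cannot be told apart. Its controls were even, at 138, 132 and 148 CPM in experiment 1 and 109, 118 and 115 CPM in experiment 2. The KO libraries fell into a low set and 1 that stood apart, with 9.44 and 8.15 CPM in experiment 1 and 9.98, 56.5 and 10.4 CPM in clones 3, 5 and 2 of experiment 2. Clone 5 kept 49.7% of the control level, where the other 4 kept 5.85% to 9.18%. After siSTAG2 it went from 312, 327 and 319.8 to 164, 147 and 152 normalised reads, with 48.3% left (log2 fold change -1.04 ± 0.10 SE, limma adjusted p = 4.68e-09).

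DCDC2 was at 102, 78.5 and 92.1 CPM in EZH2 KO clones and at 94.0, 91.7 and 91.0 CPM in SUZ12 KO clones. All 6 lay under the 3 controls, but neither difference was called (log2 fold changes -0.24 ± 0.51 and -0.23 ± 0.51, edgeR adjusted p = 0.779 and 0.771), nor was it with the 2 compared groups alone (adjusted p = 0.173 and 0.135). In STAG1 KO libraries it was at 79.5, 71.8 and 128 CPM against 127 and 116 CPM, an overlap. In SK-N-MC cells it was at 90.1 CPM with STAG2 and 43.9 CPM without. In A4573 cells DCDC2 was much lower, at 5.67 CPM with STAG2 and 6.37 CPM without, and the 95% counting interval of the ratio, 0.912 to 1.39, includes 1.

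ADRA1D encodes the alpha-1D adrenergic receptor, which couples to Gq proteins (20:4220630-4249287, minus strand). It had the weakest response of the tested members in the knockdown. Controls of experiment 1 were at 167, 155 and 122 CPM and those of experiment 2 at 147, 125 and 128 CPM. The KO libraries numbered 5 and 24 were at 14.1 and 51.8 CPM, and clones 3, 5 and 2 of experiment 2 at 22.6, 6.41 and 31.5 CPM. The highest of them was the library numbered 24, which also held the most STAG2 mRNA (62.8% of its controls), and ADRA1D was lowest in clone 5 of experiment 2, where DCDC2 was highest. In the knockdown ADRA1D went from 422, 417 and 448 to 242, 227 and 250.2 normalised reads, with 55.9% left (log2 fold change -0.84 ± 0.08 SE, limma adjusted p = 2.60e-08).

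Neither PRC2 loss nor STAG1 loss lowered ADRA1D in any library below its lowest control. It was at 142, 157 and 147 CPM in EZH2 KO clones, at 159, 158 and 150.2 CPM in SUZ12 KO clones, and at 199, 222 and 214 CPM in STAG1 KO libraries against 179 and 182 CPM. The STAG1 KO libraries lay above both of their controls, but no comparison was called. The edgeR adjusted p was 0.684, 0.594 and 0.167. In A4573 cells ADRA1D was at 165 CPM with restored STAG2 and 40.6 CPM without, the largest ratio of the 7 genes in that pair, and in SK-N-MC cells it was at 161 and 107 CPM, the smallest in that pair.

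CSPG5 encodes neuroglycan C, a chondroitin sulphate proteoglycan of the nervous system (3:47562238-47580792, minus strand). Its controls in experiments 1 and 2 were the most even of the 7, at 43.0, 45.7 and 46.1 CPM in experiment 1 and 47.0, 43.3 and 43.2 CPM in experiment 2, and they were higher in experiment 3 at 73.1 and 95.3 CPM. The STAG2 KO libraries were at 10.3 and 9.05 CPM in experiment 1 and 10.9, 3.83 and 13 CPM in clones 3, 5 and 2 of experiment 2. After siSTAG2 it went from 389, 340.5 and 377 to 98.7, 134 and 128 normalised reads, with 32.5% left (log2 fold change -1.62 ± 0.11 SE, limma adjusted p = 2.65e-11). Without STAG1 it was at 80.6, 77.6 and 99.95 CPM, without EZH2 at 50.03, 45.2 and 46.3 CPM and without SUZ12 at 46.5, 59.1 and 32.0 CPM, and each of these groups overlapped its controls. In SK-N-MC cells CSPG5 was at 58.1 CPM with STAG2 and 15.2 CPM without. In A4573 cells it was at 7.45 and 8.80 CPM, and the interval of the ratio without over with STAG2, 0.987 to 1.41, includes 1.

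**Figure D2:**
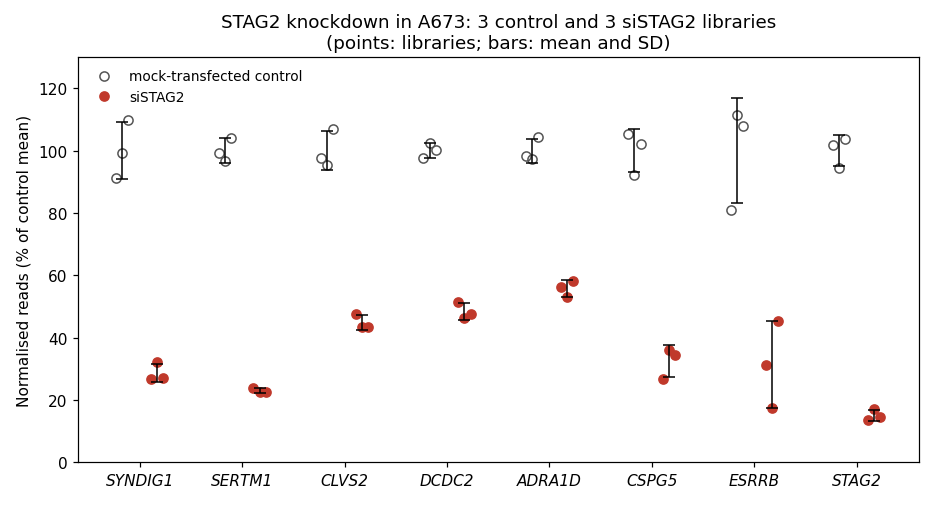
Normalised reads of the 7 genes and of STAG2 in 3 control and 3 siSTAG2 libraries, as a percentage of the control mean, with a point per library and mean and SD as bars. The siSTAG2 libraries lie under the controls for every gene, from 23.1% of the control mean for SERTM1 to 55.9% for ADRA1D among the 7 genes, with STAG2 itself at 13.7% to 17.1%.

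ESRRB, an orphan nuclear receptor known from pluripotent cells (14:76310712-76501837, plus strand), was the member called higher without PRC2. It was barely expressed in A673 controls, with 54, 60 and 40 reads in experiment 1, 19, 9 and 14 in experiment 2, and 96 and 94 in experiment 3. The STAG2 KO libraries held 1 and 2 reads in experiment 1 and 2, 1 and 0 in clones 3, 5 and 2 of experiment 2. All 5 were at or under 3 reads, the floor used here, and the 6 pooled KO reads against 196 control reads give a ratio of 28.0 with an interval of 12.6 to 77.1 (exact binomial, counting error only). In the knockdown, 9, 12 and 11 reads were recovered in controls and 3, 2 and 5 after siSTAG2. That is 31.4% of the normalised control level, and with the minimum mean lowered from 10 to 5 the log2 fold change was -1.47 (limma adjusted p = 0.0263), while with no minimum the adjusted p was 0.0517.

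ESRRB rose in every PRC2 KO library. From 1.08, 0.577 and 0.781 CPM in the controls of experiment 2, it reached 40.4, 29.4 and 42.0 CPM in EZH2 KO clones and 63.5, 53.3 and 38.1 CPM in SUZ12 KO clones. The log2 fold changes were 5.58 ± 0.34 (edgeR adjusted p = 6.12e-06) and 6.04 ± 0.35 (adjusted p = 3.28e-06). The 2 did not differ from each other beyond their spread (EZH2 KO minus SUZ12 KO, log2 -0.46 ± 0.26, adjusted p = 0.999). In STAG1 KO libraries ESRRB was at 3.11, 1.48 and 6.09 CPM against 4.69 and 5.12 CPM. In SK-N-MC cells, where no PRC2 gene was edited, it was at 45.8 CPM with STAG2 and 29.7 CPM without, and in A4573 cells it was 7.80 and 4.75 CPM.

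**Figure D3:**
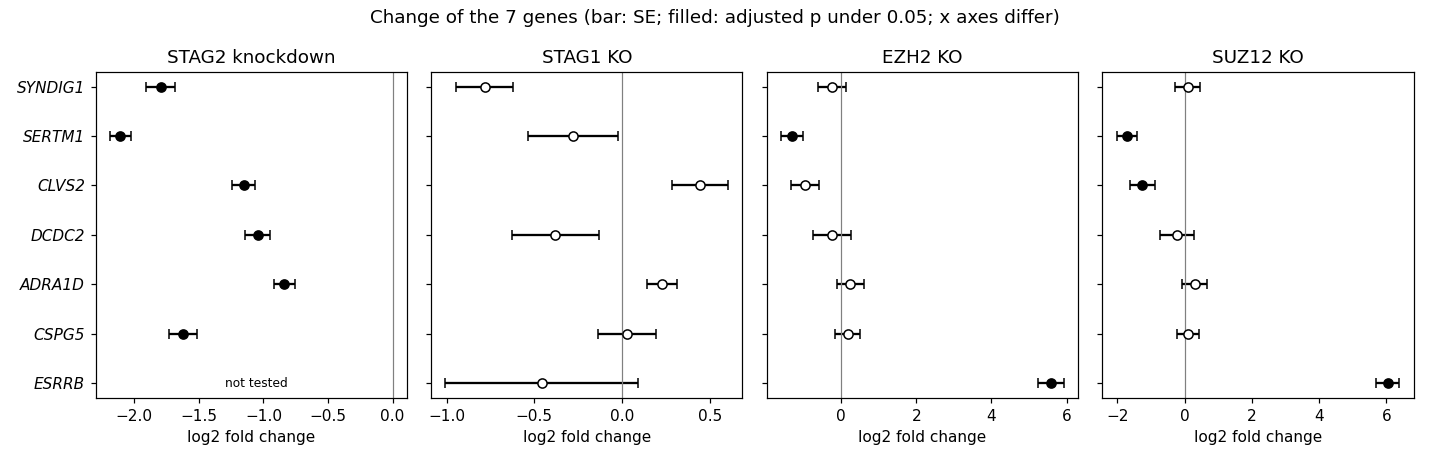
Log2 fold change of the 7 genes after STAG2 knockdown and in STAG1, EZH2 and SUZ12 KO clones, with SE bars (the fitted value of ESRRB depends on the prior count), filled where the adjusted p was under 0.05, on x axes that differ between panels. Filled points are 6 in the knockdown, 0 in STAG1 KO, SERTM1 and ESRRB in EZH2 KO, and SERTM1, CLVS2 and ESRRB in SUZ12 KO.

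The isogenic pairs have 1 library per arm and no replicate check, so ratios are given with 95% counting intervals alone. In SK-N-MC cells all 7 genes were lower without STAG2. The ratio of the level with STAG2 to that without was 20.8 for SERTM1 (17.4 to 25.1), 8.41 for SYNDIG1 (6.89 to 10.4), 6.14 for CLVS2 (5.64 to 6.70), 3.83 for CSPG5 (3.45 to 4.24), 2.05 for DCDC2 (1.92 to 2.19), 1.54 for ESRRB (1.42 to 1.68) and 1.5 for ADRA1D (1.44 to 1.57). On the log2 scale with a prior count of 2, 5 of the 7 were at least 2-fold lower, where 11.4% of 16413 genes were. In A4573 cells 5 of the 7 were lower without STAG2, with ratios of 4.06 for ADRA1D (3.81 to 4.32), 3.06 for CLVS2 (2.86 to 3.27), 2.77 for SERTM1 (2.31 to 3.32), 2.19 for SYNDIG1 (1.82 to 2.65) and 1.64 for ESRRB (1.33 to 2.03). There, 4 of the 7 were at least 2-fold lower, where 14.1% of 16124 genes were. None of the 7 was at least 2-fold higher in either pair, where 10.2% and 7.76% of genes were. The share of all genes that were lower by any amount was not computed. In SK-N-MC cells 53 of 16413 genes had a log2 difference at least as low as SERTM1, 3050 as ESRRB and 3215 as ADRA1D. In A4573 cells 654 of 16124 genes were at least as low as ADRA1D, 1981 as SYNDIG1 and 3240 as ESRRB. STAG2 mRNA itself was at 293 CPM with and 184 CPM without in SK-N-MC cells and at 86.9 and 34.1 CPM in A4573 cells.

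**Figure D4:**
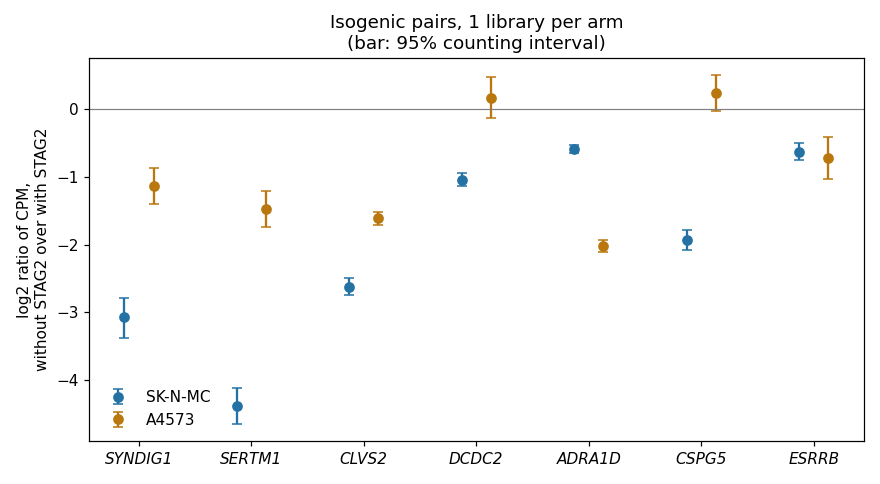
Log2 ratio of CPM without STAG2 over with STAG2 for the 7 genes in the SK-N-MC and A4573 pairs, 1 library per arm, with 95% counting intervals as bars. All SK-N-MC points lie under 0, and the A4573 points of DCDC2 and CSPG5 have intervals that include 0.

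Few of the genes around the 7 were called. Within 500 kb of their starts lie 49 other protein-coding genes, of which 37 were tested in the STAG2 KO comparison. Among these, 0 were called lower and 3 higher (8.11%, where 5.87% of all genes were called higher), and their median log2 fold change was 0.07 against 0.01 for all genes. The 3 were RNF24, 234 kb from ADRA1D (log2 fold change 0.65 ± 0.16, edgeR adjusted p = 0.0238), TDP2, 309 kb from DCDC2 (0.47 ± 0.11, adjusted p = 0.0166), and SMAD9, 247 kb from SERTM1 (1.02 ± 0.30, adjusted p = 0.0469). At an unadjusted p under 0.05 (edgeR), 4 neighbours were lower, CCNA1 (-1.09), SMPDL3A (-0.79), ELP6 (-0.27) and SCAP (-0.18), and with DESeq2 1 was called lower. Without clone 5 of experiment 2, 2 were called lower and 8 higher, and without the library numbered 24 of experiment 1 a single one was called higher. The nearest tested neighbours were MRS2, a mitochondrial magnesium channel gene that starts 44.8 kb from DCDC2 (log2 fold change 0.06), and ELP6, 67.1 kb from CSPG5 (adjusted p = 0.138). Neither neighbour of SYNDIG1, CST7 and GGTLC1, was high enough to test. In the knockdown 3 of 38 neighbours tested were called lower and 4 higher, where 11% and 9.54% of all genes were. The lower ones were MAVS (-0.30), ELP6 (-0.22) and CDC25B (-0.18) and the higher ones KLHL18 (0.67), KIF9 (0.62), SMOX (0.39) and SUPT20H (0.23), where the 6 members tested had log2 fold changes between -0.84 and -2.11.

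**Figure D5:**
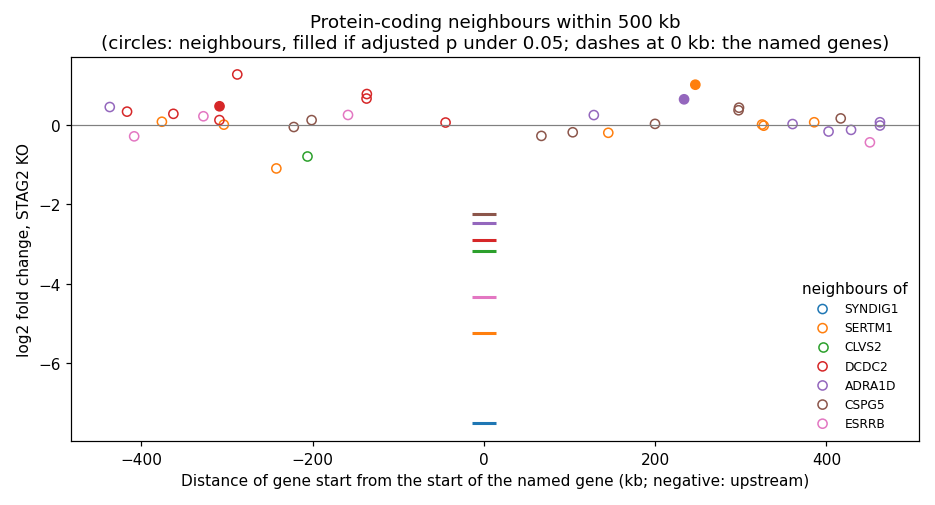
Log2 fold change in STAG2 KO clones of the 37 tested protein-coding neighbours (circles, filled where called) against the distance of their start from that of the member, with the members as dashes at 0 kb. The members, chosen by this measure, lie between -2.23 (CSPG5) and -7.51 (SYNDIG1), no circle is lower than that of CCNA1 (-1.09), and the fitted values of SYNDIG1 and ESRRB depend on the prior count.

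In EZH2 KO clones, 2 of 37 neighbours (CDC25B and SUPT20H) were called lower and 5 higher, where 3.69% and 12% of all genes were, and in SUZ12 KO clones 2 (RFXAP and SUPT20H) and 6, where 5.87% and 14.7% were. VASH1, an angiogenesis inhibitor gene 451 kb downstream of the ESRRB start, was called higher with ESRRB in both (log2 fold changes 2.64 and 3.30). The DCDC2 neighbours ALDH5A1 and GPLD1 were also called higher in both, with log2 fold changes between 1.83 and 2.56, while DCDC2 itself was not called. The ADRA1D neighbours RNF24 and SMOX made up the rest of the 5, and CCNA1, near SERTM1, was the sixth in SUZ12 KO clones (1.61). In STAG1 KO libraries 0 of 39 were called lower and 1 higher (PRNP, 0.82), where 2.5% and 2.77% of all genes were.

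Relatives of the members by protein family, 34 genes listed by name, were mostly silent in A673 cells, with 16 high enough to test in the STAG2 KO comparison. Of these, 3 were called lower and 0 higher, where 6.34% and 5.87% of all genes were. At an unadjusted p under 0.05 (edgeR), 5 were lower and 2 higher, and the median log2 fold change was -0.17. Other adrenergic receptors made up 2 of the 3 called lower. ADRA1A, the alpha-1A receptor, had 259 to 352 reads in controls and 0 and 9 in the KO libraries of experiment 1, and 56 to 85 against 4 to 11 in experiment 2 (edgeR log2 fold change -4.39 ± 0.68, adjusted p = 0.00217). ADRA2C, an alpha-2 receptor, changed by -1.31 ± 0.13 (adjusted p = 0.000180) in STAG2 KO clones and by -0.87 ± 0.10 (limma adjusted p = 1.43e-07) in the knockdown, and it was called higher in EZH2 KO and SUZ12 KO clones (1.20 ± 0.22 and 1.67 ± 0.23, edgeR adjusted p = 0.00417 and 0.000554). SEC14L2, of the lipid-binding family of CLVS2, was lower by -1.80 ± 0.31 (adjusted p = 0.00402). DESeq2 called 2 relatives higher in the same comparison. In STAG1 KO libraries 2 of 16 relatives were called lower, PRRT2, of the family of SYNDIG1 (-1.45 ± 0.19, adjusted p = 0.0252), and DCLK1, a doublecortin-like kinase (-3.01 ± 0.48, adjusted p = 0.0312), and 1 higher, the proteoglycan gene CSPG4 (1.88 ± 0.35, adjusted p = 0.0412). Of all genes, 2.5% were called lower in that comparison and 2.77% higher.

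In the knockdown 3 of 10 relatives tested were lower, ADRA2C, SEC14L2 and ADRB1, and 1, ESRRA, higher (log2 fold change 0.57 ± 0.09, limma adjusted p = 3.83e-05). Of all genes, 11% were called lower there and 9.54% higher. In the PRC2 comparisons 8 of 22 relatives were called higher and 2, DCLK1 and DCLK2, lower in each, where 12% and 14.7% of all genes were called higher and 3.69% and 5.87% lower in EZH2 KO and SUZ12 KO clones. ESRRG, ADRA1B, DCX and BCAN, 4 of the 8 in each, had almost no reads in the controls and could be tested only through the KO libraries in which they were high, so the count of 8 is a description and no support for a direction. Among the higher ones in both was ADRB3, a beta adrenergic receptor (0.84 ± 0.14 and 0.66 ± 0.14). Others rose from none or nearly no reads. ESRRG, another oestrogen-related receptor, had 0 reads in the 3 controls of experiment 2, 20 to 124 in EZH2 KO clones and 175 to 190 in SUZ12 KO clones. ADRA1B had 0 to 1 reads in these controls, 22 to 33 without EZH2 and 23 to 37 without SUZ12. DCX and BCAN had at most 1 read in the same controls and at most 26 in any PRC2 KO clone.

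Over the 22 A673 clone libraries, each set against the mean of the controls of its own experiment on the log2 CPM scale, the genes with the pattern most like each member were ranked by Pearson's r among 10890 genes with at least 5 CPM in controls. The libraries share genotypes, experiments and controls, so r is given as a description. SYNDIG1 was nearest to SOX9 (r = 0.972) and P2RY1 (0.956), SERTM1 to HTR1F (0.971) and PCDHGC3 (0.960), and CLVS2 to PCSK2 (0.982) and TNC (0.963). DCDC2 was nearest to ADGRG2 (0.970) and CECR2 (0.960), ADRA1D to DAB1 (0.977) and EHD2 (0.950), with STAG2 itself at rank 5 (0.930), and CSPG5 to SOX9 (0.962) and SLC35F1 (0.951). ESRRB, which rose with PRC2 loss, was nearest to PRKCB (0.967), a kinase gene used above as a Ewing sarcoma marker, and SHANK1 (0.956). Of these 13 genes, 11 were tested in the knockdown, whose libraries did not enter r, and 10 of the 11 were called lower there, with log2 fold changes from -0.29 for PRKCB to -2.91 for EHD2. The exception was CECR2 (log2 fold change -0.47 ± 0.19, limma adjusted p = 0.0721). In that comparison 11% of all genes were called lower, and the 13 were picked for following the members over libraries that include the STAG2 KO clones, where SOX9 (-4.18) and HTR1F (-6.52) also had low fold changes on the log2 scale, so the count is no independent support. Among the members themselves, r was highest between ADRA1D and CSPG5 (0.953) and between SERTM1 and CLVS2 (0.947), and lowest between CLVS2 and ESRRB (0.258).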

How the data were processed

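The paper describes 86-base single-end reads from non-directional libraries, for which total RNA was reverse transcribed from oligo(dT) primers with template switching. It gives no separate protocol for the knockdown, and whether those shallower libraries were made in the same way could not be checked. The authors aligned reads to hg38 with TopHat and deposited raw counts per gene in 3 tables for the A673 clones, 1 per experiment, and 1 for the isogenic pairs. The knockdown table holds a signal deposited by the authors, namely gene counts divided by DESeq2 size factors. Whole reads could be recovered for 100% of those values within 0.01 reads. The submitters' processing notes also name TopHat2 2.0.0, Bowtie 0.12.7, SAMtools 0.1.16, FastQC and DESeq2.

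Counts of the clone experiments were tested with edgeR 4.0.16 (quasi-likelihood test, TMM scaling, filterByExpr), in R 4.3.3. The STAG2 KO fit had experiment as a covariate and the PRC2 fits shared all libraries of experiment 2. Knockdown values were tested with limma 3.58.1 on log2(value + 1) for genes with a mean of at least 10, so a fold change is on that scale and is understated for low genes. P-values were Benjamini-Hochberg adjusted over all genes tested, and a gene was called at an adjusted p under 0.05. CPM were computed with TMM scaling, and log2 CPM with a prior count of 2. Levels of the pairs were scaled over the 4 isogenic libraries alone. Other CPM, that of PTPRC in SK-N-MC cells included, were scaled over all count libraries together. Pairs were compared by CPM with exact binomial 95% intervals, which cover counting error only, for genes with at least 10 counts over both arms. The floor was 3 counts. Groups came from the labels, and 0 columns were left without a sample. The tests were tried on simulated data first. The correlation of deviations of same-numbered libraries was 0.004 to 0.037 in the knockdown and -0.24 to 0.041 between WT clone and PRC2 KO libraries. Between EZH2 KO and SUZ12 KO clones it was 0.42 and 0.40 for numbers 2 and 3 and -0.16 for number 1. Since not every pair was over 0.1, the numbers were not taken to pair samples and the tests have no replicate block.

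The members, the relatives and the tests were chosen with earlier results of these data known. Genes named were the 7 members, the targeted genes, at most 10 neighbours called in STAG2 KO and at most 10 relatives called in any test, both by p, the 2 genes most alike each member and the cell markers. Other neighbours and relatives named, such as CCNA1, BCAN and VASH1, were chosen after their values were seen. Annotation was GENCODE 44 on GRCh38, and promoter windows came from RefSeq. DESeq2 1.42.0, other scaling, filters, control sets, distances and left-out libraries were the alternatives, and 1 more, in which both WT clone libraries of experiment 1 were merged, was added after seeing the data because they differed by little more than sampling noise.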

Additional observations from a re-analysis of the deposited data

Results flagged for a closer look

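Among the 5 STAG2 KO libraries of A673 cells, clone 3 of experiment 2 stood apart for SYNDIG1, with 0.845 CPM against at most 0.167 CPM in the others, and clone 5 of experiment 2 for DCDC2, with 56.5 CPM against 8.15 to 10.4 CPM. Each gap to the nearest other library passed Dixon's critical value for 5 samples, which chance passes in about 1 in 20 groups, and the same check was run on 14 groups of libraries. In clone 5, where DCDC2 was highest, SYNDIG1, SERTM1, CLVS2, ADRA1D and CSPG5 were not raised, and SERTM1, CLVS2, ADRA1D and CSPG5 each had their lowest STAG2 KO value there.

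DCDC2 and CSPG5 pointed in opposite directions in the isogenic pairs. The log2 difference without minus with STAG2 was -1.04 in SK-N-MC and 0.17 in A4573 cells for DCDC2, and -1.93 and 0.24 for CSPG5. The difference between the lines was not tested, since each arm has 1 library, and the counting intervals of both A4573 ratios include 1. Both genes were low in A4573 cells, at 178 and 192 counts for DCDC2 and 234 and 265 for CSPG5.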

How the results depend on the processing

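Of 1124 values of 96 results under the alternatives, 1009 stayed near the value as designed, among them every call of the knockdown and every value of the isogenic pairs. Near means the same direction and side of the threshold for a tested gene, within 1.5 times for a count, and within 1 SD between libraries for the untested STAG2 KO members (for the pairs, within the counting interval). ESRRB, untested in the knockdown, passed with a minimum mean of 5. Depth limits ESRRB most, with at most 60 reads in any control of experiments 1 and 2. Causes were not tested.

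STAG2 KO called 1736 genes, 2621 with DESeq2, 3663 in experiment 1 alone, 494 in experiment 2 alone, 116 with parental controls only and 1115 to 4219 without 1 library, the highest without clone 5 of experiment 2. Called neighbours were 1 lower with DESeq2, 2 lower and 8 higher within 1000 kb, and 0 to 2 lower and 1 to 8 higher without 1 library. DESeq2 called 2 relatives higher. SYNDIG1 had a log2 fold change of -10.52 in experiment 1 alone and -9.14 without clone 3 of experiment 2. Merging both WT clone libraries of experiment 1, a choice made after seeing the data, left 1192 called genes, of which 1190 were shared.

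STAG1 KO called 757 genes, 1954 with DESeq2, 298 with all clones in 1 fit, 0 with the WT clone or parental cells as the only control (edgeR, 1 control library) and 0 to 1310 without 1 library. Members called lower were 1 with DESeq2 and 1 with no filter, and 0 to 1 lower and 0 to 1 higher without 1 library. CSPG5 changed sign with the WT clone only (-0.16) and ranged from -0.16 to 0.24 without 1 library.

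EZH2 KO called 2377 genes, 1441 with the WT clone only, 199 with parental controls only, 4114 with the replicate block and 1169 to 3885 without 1 library. Members called lower were 0 with parental controls, 2 with the compared groups alone, 2 with the replicate block, where CLVS2 was added (adjusted p = 0.00281), and 0 to 2 without 1 library. SUZ12 KO called 3112 genes, 398 with parental controls, 5159 with the replicate block and 1874 to 4797 without 1 library. Members called lower were 0 with parental controls and 1 to 2 without 1 library. SYNDIG1 was at -0.17 with parental controls and from -0.10 to 0.22 without 1 library, and CSPG5 from -0.11 to 0.30.

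EZH2 KO against SUZ12 KO called 1 gene, 22 with DESeq2, 5 with no filter, 0 with those groups alone (edgeR), 3 with the replicate block and 1 to 4 without 1 library. DCDC2 was at 0.0011 with no filter and from -0.091 to 0.080 without 1 library, and CSPG5 from -0.15 to 0.28. WT clone against parental called 399 genes, 631 with DESeq2, 741 with no filter and 104 to 962 without 1 library, with 0 to 1 members higher, SYNDIG1 from -0.070 to 0.60 and CSPG5 from -0.019 to 0.21. The numbers were not taken to pair samples, so the block shows only a shared number, and in the knockdown it called 2881 genes against 2476 without it. The count test on recovered reads called 2503.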
